A study of Mus musculus with 2 samples.

Results

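The cytochrome P450 genes of the mouse were examined in intestinal RNA of ERAP1 WT and ERAP1+/- mice. A gene was a member where its symbol consisted of Cyp, a family number, a subfamily letter and a gene number, and 94 of the 40879 gene symbols in the count files met this rule without use of any measured value. Each genotype was represented by 1 library, made from RNA pooled from 3 mice of 8 weeks, all on the C57BL/6 background. The ERAP1+/- animals carried 1 Erap1 allele from which Cre recombinase had removed the exons between the loxP sites, the promoter driving Cre is not given in the sources used here, and the mice are described as germ-free animals kept in a specific pathogen-free facility. The labels name intestine as the tissue, without the segment, and give no treatment or sex. Because there was no replicate of either pool, no difference between the libraries could be tested, and each ratio carries an exact 95% interval that covers counting error only and not the spread between mice.

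Cytochrome P450 enzymes hold a heme in their active site and, with electrons from a reductase, insert an oxygen atom into lipophilic substrates. Members of families 1 to 3 are best known for the oxidation of drugs, dietary compounds and pollutants, and many are controlled by nuclear receptors and the aryl hydrocarbon receptor. Other families act on fatty acids and eicosanoids, retinoic acid, bile acid precursors, vitamin D or steroid hormones. The intestinal epithelium is known as a site of first-pass metabolism, in which these enzymes meet ingested compounds before the liver does.

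The WT library held 8114826 reads and the ERAP1+/- library 8907515 reads, counted from the 3' ends of transcripts. Levels are given as reads and as CPM, the reads scaled to a common library size after TMM adjustment, and differences on the log2(CPM + 1) scale. Of the colon epithelium markers all 10 had reads, with a summed level of 8684 CPM in WT and 7922 CPM in ERAP1+/-, against 26.5 and 28.3 CPM for 10 small intestine markers, of which Sis, Apoa4 and Defa24 had no read. Among the colon markers, Car4 (1951 and 902 CPM in WT and ERAP1+/-), Krt20 (664 and 287 CPM) and Ceacam20 (368 and 174 CPM) were lower in ERAP1+/- past 2-fold and the mucin Muc2 (1547 and 3541 CPM) was higher. Erap1 had 229 reads in WT and 2 in ERAP1+/-, a ratio of 0.0073 (0.000878 to 0.0267), which is far below the level that 1 intact allele would be thought to leave, so that ERAP1+/- stands throughout for the library with this label. These reads come from the 3' end, outside the deleted exons, so that they give the level of the transcript and do not check the deletion. Xist, the RNA of the inactive X chromosome, had 1635 and 6451 reads and the Y-linked Ddx3y had 319 and 29, so that the pools differed in these sex-linked transcripts, and the part of this in the P450 levels was not tested. The summed level of 13 epidermis markers was 2945 CPM in WT and 37.5 CPM in ERAP1+/-, that of 10 hair follicle markers 222 and 1.5 CPM, and that of 11 skeletal muscle markers 1035 and 20.4 CPM. The sebaceous gland list summed to 387 and 160 CPM, and of its 9 genes with at least 10 reads 8 had intervals below 1 and 1 above 1. Over all genes with as many reads, these shares were 23.8% and 20.6%. Of the 1486 reads of the sebaceous gland list in ERAP1+/-, Mgst1 held 777 and Soat1 675, while Scd3 had 881 reads in WT and 1 in ERAP1+/-. The kidney list summed to 3.09 and 0.752 CPM. In bulk RNA, fewer cells of a type and less RNA per cell cannot be told apart.

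A few P450 genes carried most of the family's reads. The 94 members held 7201 reads in WT and 7131 in ERAP1+/-, or 0.0887% and 0.0801% of all reads. No read was counted in either library for 36 members, 19 members had 1 to 9 reads over both, and 39 had at least 10. With no read counted, a gene may still have stood at as much as 3 reads (0.386 CPM in WT, 0.322 CPM in ERAP1+/-), and low levels of the unread genes were not detectable at this depth. The 3 members with the most reads were Cyp2c55, Cyp2d34 and Cyp3a13, and together they took 50.9% of the family's reads in WT and 41.1% in ERAP1+/-. The 12 with the most reads took 80.5% and 79.3%. Reads were not divided by transcript length, since they come from the 3' end of each transcript, and the order of genes is an order of reads.

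**Figure D1:**
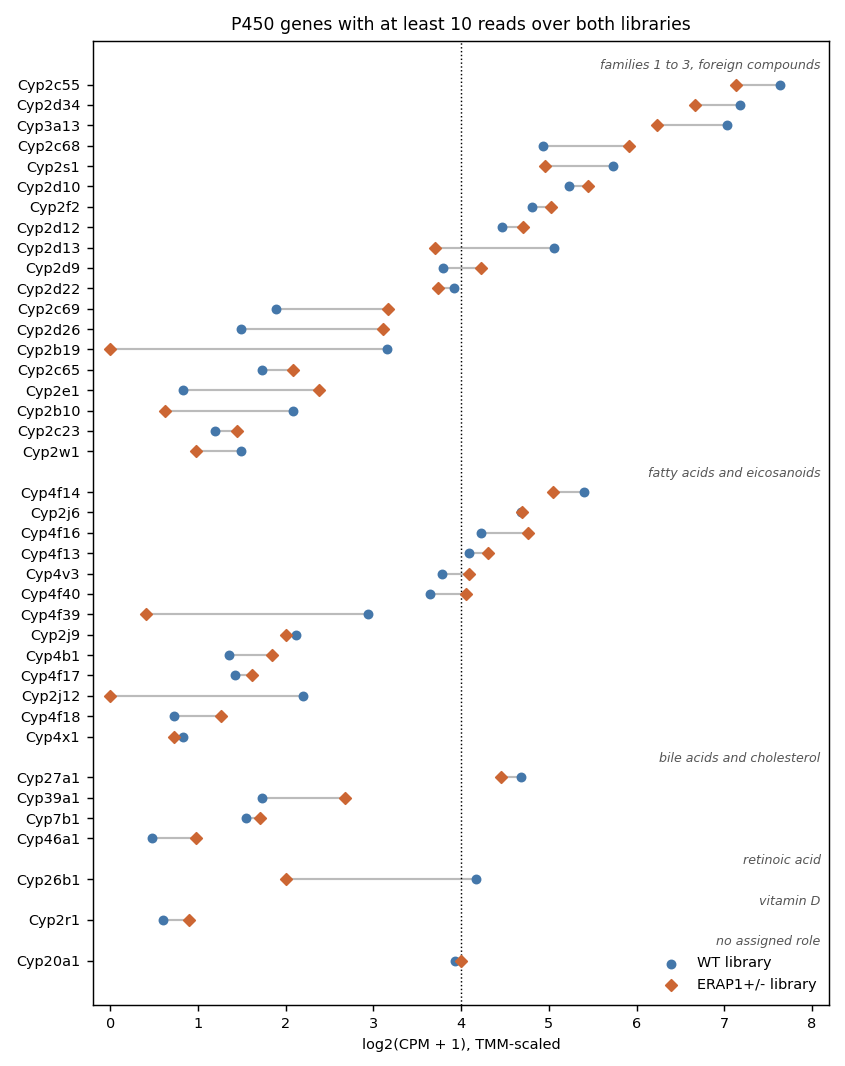
Level of the 39 P450 genes with at least 10 reads over both libraries, as log2(CPM + 1) after TMM scaling (horizontal axis), in the WT library (blue circles) and the ERAP1+/- library (orange diamonds). The genes are grouped by role and the dotted line marks the level of 4; Cyp2c55 was the highest in both libraries, and the widest gaps belonged to Cyp2b19, Cyp4f39, Cyp2j12 and Cyp26b1, all lower in ERAP1+/-.

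The family as a whole was slightly lower in ERAP1+/-, at 767 CPM against 927 CPM in WT, a ratio of 0.827 (95% interval 0.8 to 0.855). Without Cyp2c55, the member with the most reads, the ratio was 0.86 (0.829 to 0.892). The typical member did not follow the sum. Over the 39 members with at least 10 reads the median log2 difference was 0.19, with quartiles of -0.50 and 0.43, beside 0.00 (-0.31 and 0.30) over the 16142 genes with as many reads. Of these 39 members, 23 had a positive and 16 a negative difference. The positive share was 59%, against 50.3% of all genes with as many reads. The median fell to 0.07 over the 19 members that could be judged by the size rule given below. Over the members with at least 50 reads it was 0.04.

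The counting interval lay below 1 for 11 of the 39 members, or 28.2%, where 23.8% of all genes with at least 10 reads had such an interval. It lay above 1 for 9 members, or 23.1%, against 20.6% of all genes, and both shares were near the background. For the other 19 it held 1. By the size rule, which asks for a difference over 2-fold on the log2(CPM + 1) scale and a level of at least 4 (15 CPM) in 1 or both libraries, 19 members could be judged. Cyp26b1 and Cyp2d13 were lower in ERAP1+/- by this rule, 10.5% of the 19 against 3.96% of the 8013 genes judged, and 0 members were higher, against 1.39%. With the level replaced by at least 10 reads in 1 library, 36 members could be judged. Then 6 were lower (16.7%, against 5.92% of 15334 genes) and 3 were higher (8.33%, against 3.14%). The 4 lower genes added in this way were Cyp2b19, Cyp4f39, Cyp2j12 and Cyp2b10, and the 3 higher ones were Cyp2e1, Cyp2d26 and Cyp2c69.

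**Figure D2:**
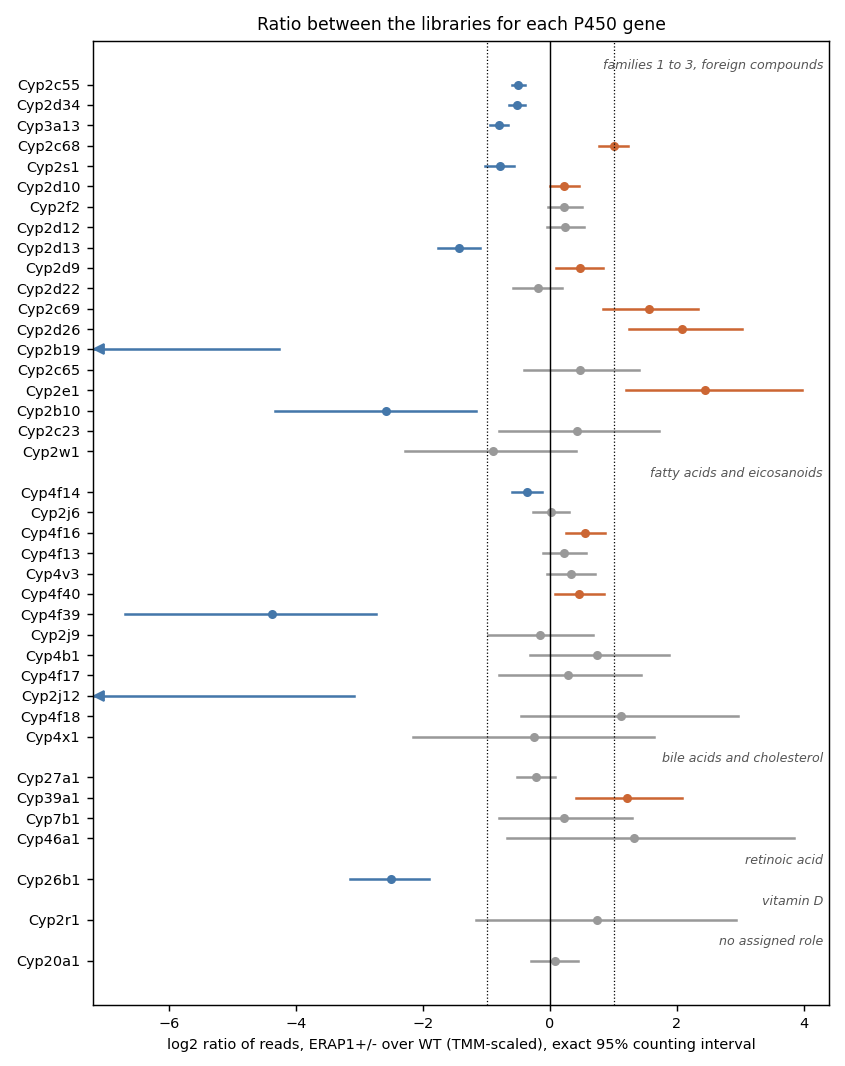
Ratio of reads in ERAP1+/- to WT for the same 39 genes after TMM scaling, on a log2 axis, with exact 95% counting intervals. Blue marks intervals below 1 (11 genes), orange those above 1 (9 genes) and grey those that hold 1 (19 genes), arrows mark genes without a read in ERAP1+/-, and the dotted lines stand at 2-fold.

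Among the enzymes of foreign compounds, the 3 most abundant genes were lower in ERAP1+/-, while genes of middle and low level differed in both directions. The 50 members of this group held 5611 reads in WT and 5330 in ERAP1+/-, a ratio of 0.793 (0.764 to 0.824). Of the 19 with at least 10 reads, 7 had intervals below 1 and 6 above 1. Over all genes with as many reads, 23.8% had intervals below 1 and 20.6% above 1. Cyp2c55, a Cyp2c enzyme known from the colon that also hydroxylates arachidonic acid (chromosome 19 from 39007019 to 39042693), had 1542 reads in WT and 1306 in ERAP1+/-, or 198 and 140 CPM. It was 1.41-fold lower (1.31 to 1.52). Cyp2d34, a member of the Cyp2d cluster (chromosome 15 from 82615965 to 82620946), had 1118 and 937 reads and was 1.43-fold lower (1.31 to 1.56). Cyp3a13, a Cyp3a enzyme (chromosome 5 from 137892932 to 137921619), had 1005 and 691 reads, or 129 and 74.3 CPM, and was 1.74-fold lower (1.58 to 1.92). All 3 stayed under 2-fold. Cyp2s1, an enzyme of epithelia outside the liver (chromosome 7 from 25802475 to 25816913), had 405 and 280 reads and was 1.73-fold lower (1.48 to 2.02). Cyp2f2, best known for the activation of naphthalene in the airways, had 210 and 295 reads, and its interval held 1 (ratio 1.17, 0.98 to 1.41).

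Cyp3a13 stood almost alone in its subfamily. The 7 Cyp3a symbols held 1008 and 691 reads in WT and ERAP1+/-, of which all but 3 reads in WT belonged to Cyp3a13. Cyp3a11, the major drug-inducible Cyp3a gene of mouse liver, had no read in either library, although Nr1i2, which encodes the pregnane X receptor that controls it, had 554 and 595 reads. Cyp1a1 and Cyp1a2, the classical targets of the aryl hydrocarbon receptor, had no read either, and Cyp1b1 had 3 reads in WT and none in ERAP1+/-. Ahr itself had 99 and 116 reads, a ratio of 0.979 (0.742 to 1.29).

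The Cyp2c genes lie on chromosome 19, all but Cyp2c23 in a cluster, and differed in direction within the cluster. All 15 members, Cyp2c23 included, summed to 1826 and 1983 reads, a ratio of 0.907 (0.851 to 0.967), and 8 of them had no read. Cyp2c68 (39688834 to 39741054) had 229 reads in WT and 549 in ERAP1+/-, or 29.5 and 59 CPM, a ratio of 2 (1.71 to 2.35). On the log2(CPM + 1) scale its difference of 0.98 fell just short of the size rule. Cyp2c69 (39842814 to 39886799) had 21 and 74 reads, a ratio of 2.94 (1.79 to 5.03). Cyp2c68 and Cyp2c69 were thus higher in ERAP1+/- while Cyp2c55, elsewhere in the cluster, was lower. Cyp2c65, with 18 and 30 reads, had an interval that held 1 (0.751 to 2.65). The pair of Cyp2c68 and Cyp2c69 is closely related, and reads can be divided between its members. Of the 75-base words in the last 500 bases of their annotated transcripts, 33.3% for Cyp2c68 and 28.4% for Cyp2c69 also occurred in another gene, namely each other, Cyp2c40 or Cyp2c67, so that the division of reads among them is uncertain. Cyp2c67 had 6 and 3 reads and Cyp2c40 had 0 and 5. No such word was shared by Cyp2c55 or Cyp2c65.

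The promoters of the pair are shown because both genes were higher in ERAP1+/- and because the likeness of the genes extends beyond the transcript. Each window runs from 250 bases before to 50 bases after the RefSeq start on GRCm38.p6, on the minus strand, at chr19:39741052-39741351 for Cyp2c68 and chr19:39886720-39887019 for Cyp2c69. Capitals mark the TATA box letters TATAAA, the nuclear receptor half-site AGGTCA or the aryl hydrocarbon receptor core GCGTG, on either strand (CACGC on the other strand of the core). The windows were identical at 277 of 296 aligned bases (93.6%). The core stood 130 bases before the start of Cyp2c68 and TATAAA stood 11 bases after that of Cyp2c69, and neither motif was found in the window of the other gene. These distances are from the RefSeq starts, and the GENCODE starts (39741054 and 39886799) differ from them.
Cyp2c68: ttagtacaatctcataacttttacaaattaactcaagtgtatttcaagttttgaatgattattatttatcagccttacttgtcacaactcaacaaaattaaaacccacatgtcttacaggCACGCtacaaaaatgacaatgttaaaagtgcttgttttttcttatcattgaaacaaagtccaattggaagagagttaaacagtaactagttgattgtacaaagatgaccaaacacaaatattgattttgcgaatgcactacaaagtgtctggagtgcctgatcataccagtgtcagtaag
Cyp2c69: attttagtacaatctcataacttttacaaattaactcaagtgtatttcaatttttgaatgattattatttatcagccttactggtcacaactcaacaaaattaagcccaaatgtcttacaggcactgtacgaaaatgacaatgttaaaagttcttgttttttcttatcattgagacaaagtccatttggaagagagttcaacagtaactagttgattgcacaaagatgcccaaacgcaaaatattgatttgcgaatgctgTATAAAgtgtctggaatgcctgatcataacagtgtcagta

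Over all 83 RefSeq promoter windows of 73 member genes, TATAAA was found in 32 (38.6%), against 13.6% of the 32851 windows of all genes. AGGTCA was found in 22 (26.5%, against 16.3%) and GCGTG in 17 (20.5%, against 32.4%). None of the 3 motifs contains another, both strands were searched, and a match is only a match of letters. Windows of related members can be nearly alike, as those of Cyp2c68 and Cyp2c69 were. The member windows are therefore not separate cases, and the difference in shares was not tested.

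The Cyp2d cluster on chromosome 15 showed the same division as the Cyp2c cluster. Its 9 members summed to 2047 and 2028 reads, a ratio of 0.828 (0.778 to 0.88), and 7 had at least 10 reads. Next to Cyp2d34, Cyp2d13 (82636750 to 82642045, RefSeq) had 252 reads in WT and 112 in ERAP1+/-, or 32.4 and 12 CPM, and was 2.69-fold lower (2.15 to 3.4). RefSeq lists Cyp2d13 as a transcribed pseudogene, and it is not in the GENCODE M21 annotation. Higher in ERAP1+/- were Cyp2d26 (82790101 to 82794294) with 14 and 71 reads, a ratio of 4.24 (2.37 to 8.14), and Cyp2d9 with 100 and 165 reads, a ratio of 1.38 (1.07 to 1.79). Cyp2d10 had 283 and 396 reads, and its ratio of 1.17 had a lower bound at 1. Cyp2d12 with 164 and 232 reads and Cyp2d22 with 110 and 115 reads had intervals that held 1. The genes of this cluster are also alike in sequence, with 21.2% of the end words of Cyp2d10 and 17.7% of those of Cyp2d9 found in another gene, but 4.3% for Cyp2d26 and 6.95% for Cyp2d34. Cyp2d13 could not be matched to a transcript for this count, so that words which Cyp2d34 or other genes share with it are missing from these shares.

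**Figure D3:**
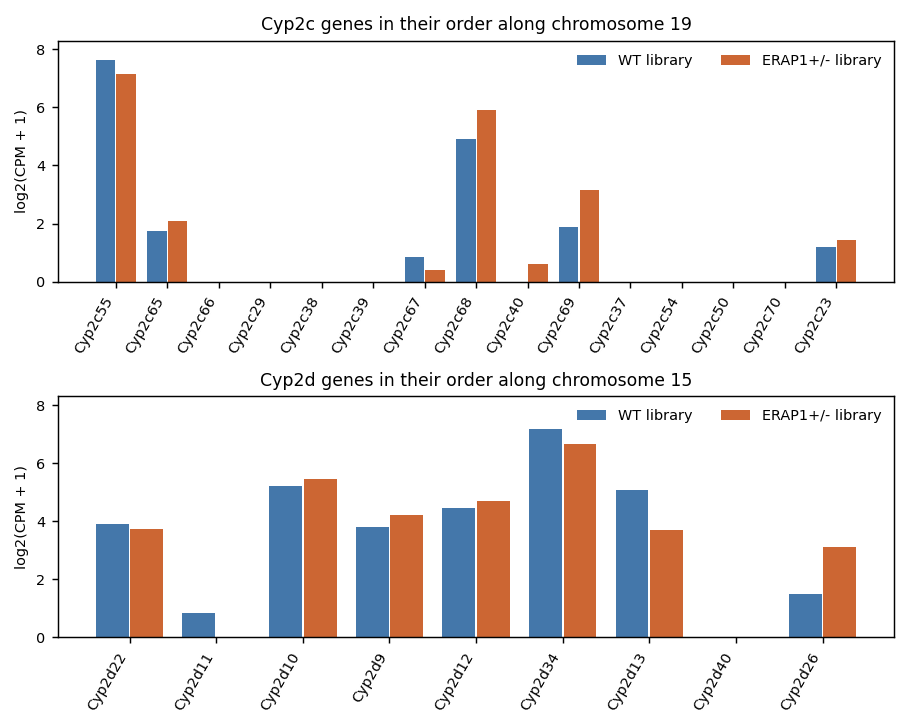
Level of the Cyp2c genes on chromosome 19 (top) and of the Cyp2d genes on chromosome 15 (bottom), as log2(CPM + 1) after TMM scaling, in their order along the chromosome, with 1 bar for the WT library (blue) and 1 for the ERAP1+/- library (orange). Cyp2c55, Cyp2d34 and Cyp2d13 were lower in ERAP1+/-, Cyp2c68, Cyp2c69, Cyp2d9 and Cyp2d26 were higher, and genes without a bar had no read.

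Cyp2e1, which oxidises ethanol and small solvents, was also higher in ERAP1+/- (chromosome 7 from 140763739 to 140774987), with 6 reads in WT and 39 in ERAP1+/-, a ratio of 5.43 (2.28 to 15.7). Cyp2e1 is known from liver and fat. The 8 hepatocyte markers summed to 105 and 109 CPM in WT and ERAP1+/-, with Serpina1a and Fga without a read, and Alb had 11 and 17 reads. Most reads of this list belonged to Ttr (391 and 709 reads) and Tat (373 and 256 reads). Their ratios differed in direction, at 1.51 (1.34 to 1.72) and 0.573 (0.487 to 0.674), so that the sum does not describe the single markers. The 8 adipocyte markers summed to 106 and 195 CPM, and Adipoq had 34 and 124 reads. Their intervals lay above 1 for 4 and below 1 for 1, against 20.6% and 23.8% of all genes with at least 10 reads. The part of fat in the Cyp2e1 difference was not tested.

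The Cyp2b subfamily had the widest gap of the foreign compound enzymes, with 87 reads in WT and 5 in ERAP1+/- over 5 genes, 20.8-fold lower (8.59 to 65.8). Most of these reads belonged to Cyp2b19, an arachidonic acid epoxygenase of keratinocytes (chromosome 7 from 26757142 to 26772630), which had 61 reads in WT and none in ERAP1+/-. Set against the floor of 3 reads it was 24.3-fold lower, and the interval of its ratio allowed no less than 19.2-fold. Cyp2b10, the classical target of the constitutive androstane receptor, had 25 and 5 reads, 5.99-fold lower (2.25 to 20). Nr1i3, which encodes that receptor and is named here after its values were seen, had 11 and 17 reads.

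The enzymes of fatty acids and eicosanoids summed to nearly the same level in both libraries, with 1108 reads in WT and 1342 in ERAP1+/- over 25 members, a ratio of 1.01 (0.934 to 1.1). Cyp4f14, which inactivates leukotriene B4 by hydroxylation at the end of the chain (chromosome 17 from 32905070 to 32917342), had 321 and 299 reads and was 1.29-fold lower (1.09 to 1.51). On the same chromosome, Cyp4f16 with 138 and 243 reads (ratio 1.47, 1.19 to 1.83) and Cyp4f40 with 89 and 146 reads (1.37, 1.05 to 1.8) were higher, and 12.1% of the end words of Cyp4f16 occurred in another gene. The Cyp4f subfamily thus summed to 95.6 and 96.5 CPM. Cyp4f13 with 125 and 175 reads, Cyp4f17 with 13 and 19, and Cyp4v3, a hydroxylase of medium-chain fatty acids, with 99 and 149 had intervals that held 1. So did Cyp4b1, which hydroxylates fatty acids and activates some toxins, with 12 and 24 reads.

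Cyp2j6, an arachidonic acid epoxygenase (chromosome 4 from 96516138 to 96553661), was the member of this group with the nearest levels, at 24.6 CPM in WT and 24.8 CPM in ERAP1+/- (191 and 231 reads, ratio 1.01, 0.83 to 1.23). Cyp2j9 had 26 and 28 reads. In the same cluster Cyp2j12 (96099318 to 96141152) had 28 reads in WT and none in ERAP1+/-, at least 11.2-fold lower, with a limit of 8.5-fold from the interval. All 5 Cyp4a symbols, the fatty acid hydroxylases controlled by PPARalpha, were without a read.

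Cyp4f39, the hydroxylase of the ultra-long fatty acids of skin acylceramides (chromosome 17 from 32452723 to 32493320), had 52 reads in WT and 3 in ERAP1+/-, 20.8-fold lower (6.72 to 104). Of 11 genes known from acylceramide formation, a list made after these values were seen, all had intervals below 1 and the median log2 difference was -1.27. Such an interval was found for 23.8% of all genes with at least 10 reads. The fatty acid elongase Elovl4 of this list had 677 and 9 reads. Cyp4f39 and Cyp2b19 are both known from the epidermis, and of the 12 epidermis markers with at least 10 reads all 12 had intervals below 1, with a median log2 difference of -5.36. Krt1 had 1049 reads in WT and 6 in ERAP1+/-, Krt10 3922 and 72, and Krt2 had no read in either library. The part of skin RNA in the levels of Cyp2b19 and Cyp4f39 was not tested. Leaving the skin and skeletal muscle genes out of the scaling left the 2 lower and 0 higher members of the size rule as they were. This alters the library sizes only and takes no skin RNA out of a gene's reads. Cyp2b19 and Cyp4f39 did not reach the level of that rule, so the count does not bear on them.

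The promoter windows of Cyp2b19 (chr7:26756892-26757191, plus strand) and Cyp4f39 (chr17:32452473-32452772, plus strand) are shown as the pair of members with the largest gaps, drawn and marked as above, and with them that of Cyp26b1 (chr6:84593761-84594060, minus strand), described next. Cyp2b19 held AGGTCA 121 bases before the start, and Cyp4f39 held the receptor core at 78 and 199 bases before the start. Cyp26b1 held TATAAA 139 bases before the RefSeq start, while its GENCODE start (84593908) differs and lies nearer to these letters. No motif was common to the 3 windows.
Cyp2b19: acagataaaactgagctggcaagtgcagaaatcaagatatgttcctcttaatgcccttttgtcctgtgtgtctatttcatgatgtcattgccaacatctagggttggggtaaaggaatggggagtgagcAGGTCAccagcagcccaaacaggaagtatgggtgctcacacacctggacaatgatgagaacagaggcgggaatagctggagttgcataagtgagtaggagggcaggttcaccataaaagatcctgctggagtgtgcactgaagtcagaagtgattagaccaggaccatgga
Cyp4f39: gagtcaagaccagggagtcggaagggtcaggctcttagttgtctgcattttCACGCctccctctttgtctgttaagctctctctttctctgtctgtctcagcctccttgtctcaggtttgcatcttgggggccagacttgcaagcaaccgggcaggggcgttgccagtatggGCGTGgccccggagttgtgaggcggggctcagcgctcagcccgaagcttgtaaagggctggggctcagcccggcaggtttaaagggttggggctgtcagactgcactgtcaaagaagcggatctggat
Cyp26b1: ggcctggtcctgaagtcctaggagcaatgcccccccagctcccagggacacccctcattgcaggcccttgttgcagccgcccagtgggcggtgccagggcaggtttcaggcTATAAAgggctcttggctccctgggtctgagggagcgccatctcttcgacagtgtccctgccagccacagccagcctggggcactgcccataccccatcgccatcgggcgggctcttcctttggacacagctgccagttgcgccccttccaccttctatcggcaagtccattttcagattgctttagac

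Cyp26b1, which clears retinoic acid by oxidation (chromosome 6 from 84571414 to 84593908), was the member with the largest difference by the size rule. It had 132 reads in WT and 28 in ERAP1+/-, or 17 and 3.01 CPM, and was 5.64-fold lower (3.73 to 8.82), a log2 difference of -2.17. Of the other retinoic acid hydroxylases, Cyp26a1 had 0 and 1 reads and Cyp26c1 had none. Of 23 genes of retinoid handling, 21 had at least 10 reads, with intervals below 1 for 10 and above 1 for 3 and a median log2 difference of -0.20. Over all genes with as many reads, 23.8% had intervals below 1 and 20.6% above 1. Rdh16, a retinol dehydrogenase, was lower past the size rule, with 537 and 274 reads, 2.35-fold (2.02 to 2.72). Aldh1a1, which makes retinoic acid, had 440 and 461 reads, a ratio of 0.875 (0.766 to 1). Crabp2, the carrier of retinoic acid to its nuclear receptors, had 110 reads in WT and none in ERAP1+/-. Set against the floor of 3 reads this was 43.9-fold lower, with a limit of 35.1-fold from the interval. Crabp2 is expressed in skin too, and the epidermis and muscle markers given above moved the same way as Cyp26b1. Their part was not tested.

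The enzymes of bile acid and cholesterol metabolism summed to 229 and 276 reads over 6 members, a ratio of 1.01 (0.842 to 1.2). Cyp27a1, the mitochondrial sterol hydroxylase of the acidic bile acid pathway (chromosome 1 from 74713574 to 74737892), had 191 and 196 reads, and its interval held 1 (ratio 0.857, 0.699 to 1.05). Cyp39a1, which hydroxylates oxysterols (chromosome 17 from 43667425 to 43751431), had 18 and 50 reads and was higher in ERAP1+/-, with a ratio of 2.32 (1.33 to 4.23). Cyp7b1, another oxysterol hydroxylase, had 15 and 21 reads. Cyp7a1, the rate-limiting enzyme of bile acid synthesis in the liver, had no read, and Cyp8b1 had 2 in WT alone. Among 13 genes of bile acid handling, 7 had at least 10 reads, with a median log2 difference of 0.23, and none was past the size rule. The export pump Abcc3, the gene of this list with the most reads, had 127 and 180.

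The enzymes of vitamin D and of steroid hormones were near the limit of detection. Cyp24a1, the vitamin D hydroxylase that the vitamin D receptor induces, had no read in either library, Cyp27b1, which makes the active hormone, had 0 and 1 reads, and Cyp2r1, which performs the first hydroxylation of vitamin D, had 4 and 8. The receptor gene Vdr had 3127 reads in WT and 2646 in ERAP1+/-, 1.41-fold lower (1.34 to 1.49), and the calcium pump Atp2b1, the gene with the most reads of the 7 vitamin D targets and transporters, had 7597 and 5074, 1.79-fold lower (1.73 to 1.86). All 4 genes of that list with at least 10 reads had intervals below 1, as had 23.8% of all genes with as many reads. The 6 steroid enzymes held 6 reads in WT and 5 in ERAP1+/- in all. Cyp11a1, which cleaves the side chain of cholesterol, had 3 and 1 reads, Cyp17a1 3 and 0, and the aromatase Cyp19a1 0 and 4. The 5 adrenal cortex markers summed to 6.18 and 4.51 CPM. Of 18 partners in steroid synthesis, Hsd11b2, which inactivates glucocorticoids, had the most reads, with 990 and 1647, a ratio of 1.39 (1.28 to 1.51).

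Cyp20a1, an orphan enzyme without an assigned substrate, had 111 and 140 reads and a ratio of 1.05 (0.815 to 1.36). Cyp2c23, an arachidonic acid epoxygenase, had 10 and 16 reads, and Cyp2w1, known from the fetal gut, had 14 and 9. The intervals of both held 1, as did those of Cyp4f18, Cyp46a1 and Cyp4x1, each with under 20 reads. The 19 members with 1 to 9 reads held 35 reads in WT and 21 in ERAP1+/- in all.

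Of the genes that serve and regulate P450 enzymes, few passed the size rule. In 9 lists with 131 genes in the files, 113 had at least 10 reads and 63 reached the level of 4. Of these 63, 0 were higher in ERAP1+/- and 3 were lower, beside the background shares of 1.39% and 3.96% given above. These included Rdh16, described above, and the epidermal lipoxygenase Alox12e, with 123 and 1 reads (147-fold lower, 25.9 to 5863). Por, the reductase that passes electrons to the microsomal P450 enzymes, had 1432 reads in WT and 1065 in ERAP1+/-, 1.61-fold lower (1.49 to 1.74). The interval of Por thus lay wholly below 1, as did that of the family's summed reads. Among the 10 electron donors in the files, Cyb5b had the most reads, 1565 and 1701 (ratio 0.908, 0.847 to 0.973). Of the 9 donors with at least 10 reads, 4 had intervals below 1, against 23.8% of all genes with as many reads.

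The 12 genes of heme synthesis and breakdown had a median log2 difference of 0.11, with intervals above 1 for 4 and below 1 for 2. Urod, a decarboxylase of heme synthesis and the gene of this list with the most reads, had 359 and 484. The 22 receptors and partners had a median of 0.01, with intervals above 1 for 5 and below 1 for 7. Over all genes with at least 10 reads, 20.6% had intervals above 1 and 23.8% below 1. Of the 24 genes of eicosanoid synthesis and epoxide hydrolysis, 4 had intervals above 1 and 10 below 1, and the median was -0.22. The prostaglandin dehydrogenase Hpgd had the most reads of these, with 755 and 723. The median was -0.01 for the steroid synthesis partners and -0.89 for the vitamin D list. Of 3 P450 genes whose symbols do not meet the rule, the sterol demethylase Cyp51 had 1130 and 1151 reads (1.18-fold lower, 1.08 to 1.28).

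**Figure D4:**
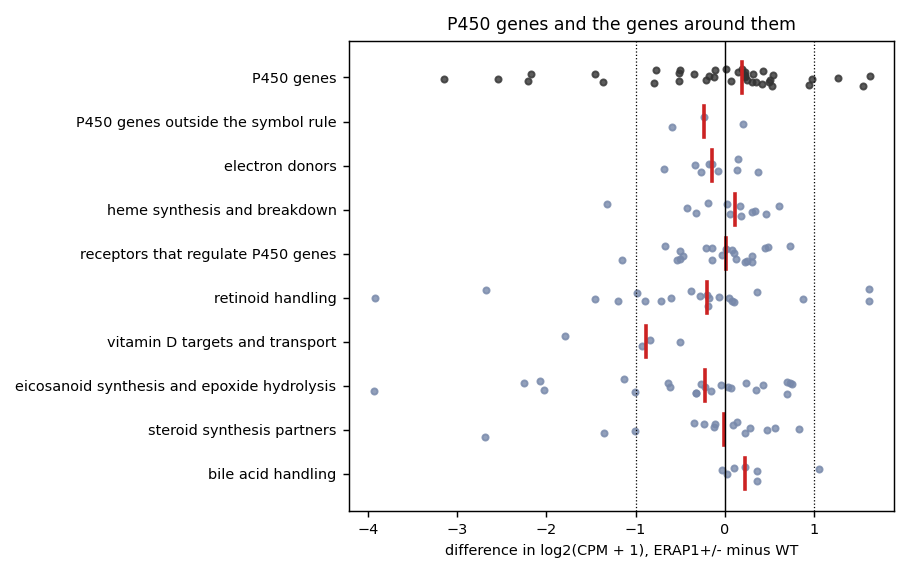
Difference in log2(CPM + 1), ERAP1+/- minus WT, of the 39 P450 genes (black) and of the genes of 9 lists around them (blue), for genes with at least 10 reads, with the median of each list as a red bar. The median was 0.19 for the P450 genes and between -0.89 and 0.23 for the lists, and the points left of -2 include Cyp2b19, Cyp4f39, Cyp2j12, Cyp26b1, Crabp2 and Alox12e.

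**Figure D5:**
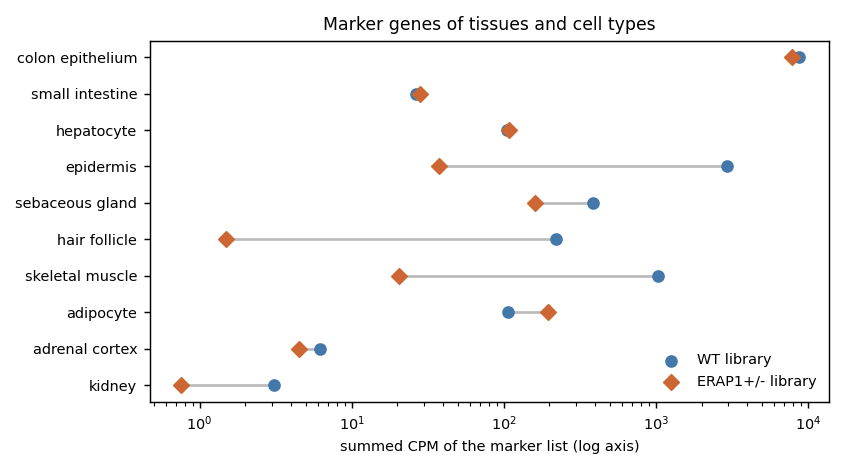
Summed level of each marker list in the WT library (blue circles) and the ERAP1+/- library (orange diamonds), in CPM on a log axis. Colon epithelium was the highest list in both libraries, at 8684 and 7922 CPM, and the epidermis, hair follicle and skeletal muscle lists were lower in ERAP1+/-, at 37.5, 1.5 and 20.4 CPM.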

How the data were processed

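For each genotype, equal amounts of intestinal RNA of 3 mice were combined into 1 QuantSeq 3' mRNA library. The deposited files hold counts, whole numbers of reads per gene symbol without normalization, made by the authors. Per the labels and the study's methods, the tools were Bowtie2 and RSEM with a GENCODE transcript reference of GRCm38, while the methods also describe STAR with HTSeq-count. The strand setting is not given in the sources used here. Every row names a gene, and no per-sample column was left unused (0).

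TMM factors (0.958 for WT and 1.04 for ERAP1+/-) came from edgeR 4.0.16 (R 4.3.3), and CPM (counts scaled to the adjusted library size) was computed from them. Mitochondrial and ribosomal RNA took 18% and 16.7% of reads. The 95% intervals of ratios are exact and conditional on the summed reads (binomial, scipy 1.17.1), and intervals and floors cover counting error only, since reads carry no molecular identifiers in the counts. A level of 4 corresponds to 117 reads in WT and 140 in ERAP1+/-. Of the 94 members, 93 were matched by symbol to GENCODE M21, which is not the release that the methods name, and all to it or RefSeq. Promoter sequences were read from RefSeq (GRCm38.p6) and aligned with Biopython 1.88. The scripts were tested on simulated data.

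The members, the role groups and the gene lists were chosen with earlier results of these data known. Named are the members past the size rule, the 12 with the most reads, members with at least 20 reads over both libraries or, where a role is counted out, fewer, and from each list the genes past the size rule, the gene with the most reads and Por, Ahr, Nr1i2, Vdr, Cyp51, Aldh1a1 and Crabp2. A list gene past the size rule is not reported here by name. Elovl4 was chosen after its values were seen, and marker genes are named where their lists are described. Alternatives were DESeq2 1.42.0 size factors, scaling by total counts, scaling without mitochondrial and ribosomal RNA or without skin and muscle genes, another pseudocount (0.1), other filters, thresholds and sums, and tests with assumed variation.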

Additional observations from a re-analysis of the deposited data

How the results depend on the processing

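No paired analysis was possible because WT and ERAP1+/- had 1 library apiece, and for the same reason no replicate could be left out. None of the 35 members with at least 20 reads over both libraries changed sign under an alternative. Members with fewer reads, some of them named above, were not followed singly. With DESeq2 size factors the family's summed ratio was 0.828. Scaling by total counts raised the median of all genes past the level by 0.12 on the log2 scale, gave 1 higher member (Cyp2c68) and gave summed ratios of 0.902 for all members, 1.1 for the fatty acid enzymes and 0.865 for families 1 to 3, and the split of 23 positive and 16 negative differences was the same in number. With at least 10 reads in 1 library, and likewise without a filter, 6 members were lower and 3 higher. Of the 131 pathway genes in the files, 16 were lower and 3 higher under both settings. Over all genes with at least 10 reads in 1 library, 5.92% were lower and 3.14% higher. A 4-fold threshold left 1 lower member and 1 lower pathway gene. No share over all genes was computed without a filter, at 4-fold or by the exact test that follows. With the edgeR exact test and an assumed biological coefficient of variation of 0.2, 1 member was lower, and with 0.4, 0 were, and these values are assumptions that 2 libraries cannot check. The median difference was 0.07 over the members past the level and 0.04 over those with at least 50 reads. Without Cyp2c55 the summed ratio was 0.86 for all members and 0.826 for families 1 to 3. Without Cyp2d13, which RefSeq lists as a pseudogene, 1 lower member was left, an alternative chosen after seeing the data. The cause of these shifts was not tested beyond the genes or reads each alternative leaves out. Depth limits the 19 members with 1 to 9 reads and the 36 without a read, of which 1 (Cyp2d11, 6 reads in WT and 0 in ERAP1+/-) had an interval that did not hold 1.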
